A study of Homo sapiens with 4 samples.

Results

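The genes described here are 35 genes of glycolysis, lactate handling and the response to low oxygen, followed across 4 Agilent arrays of breast cancer cells. They were given as a named list, and a probe was assigned to a gene where the RefSeq accession printed on the array mapped to that gene, which gave 54 of the 41000 probes on the array. All 35 genes had at least 1 probe, 13 had more than 1, and 34 had a probe that passed the filter on low signal, among 12159 genes of the whole array that did. The list holds 14 glycolytic enzymes, 2 lactate dehydrogenase subunits, 4 glucose and lactate transporters, 4 regulatory kinases, 9 hypoxia targets and 2 oxygen-regulated subunits of hypoxia-inducible factor (HIF).

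Total RNA came from SkBr3 and BT474, both HER2-amplified human breast cancer lines, and from 1 lapatinib-resistant clone of each, called SkBr3/Lap and BT474/Lap. Lapatinib inhibits the EGFR and HER2 kinases. The parental cells were labelled as vehicle-treated, and the clones had been selected with lapatinib raised to 1 μM and were labelled as lapatinib-treated, so resistance and the presence of the drug cannot be told apart. Each resistant group was a single clone measured on 1 array, so no difference between a clone and its parent has a replicate check. The sample labels give clone number 3 for SkBr3/Lap and 6 for BT474/Lap, whereas the text of the study gives these numbers the other way round.

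The 75th percentile of the signal was 1115 on the SkBr3 array, 2074 on that of SkBr3/Lap, 1158 on that of BT474 and 1681 on that of BT474/Lap, and 66.6% to 74.0% of probes were well above background. Signals are printed below as deposited, while fold changes were taken after each array was scaled to its 75th percentile, so a higher raw signal in SkBr3/Lap can go with a fold change below 0. Where 4 signals follow a gene they stand in the order SkBr3, SkBr3/Lap, BT474, BT474/Lap, and of paired log2 fold changes that of SkBr3/Lap comes first. SkBr3, BT474 and BT474/Lap shared 1 slide and SkBr3/Lap was on another, so slide and resistance cannot be told apart for the SkBr3 pair. Of 11 markers of luminal breast epithelium, 8 were well above background in parental SkBr3, 9 in its clone and 11 on both BT474 arrays. PGR and CDH1 were not well above background on the SkBr3 arrays. Of the 9 with a fold change in SkBr3/Lap, 3 were at least 2-fold lower and none higher: ERBB2, which encodes the drug target HER2 (238524 to 118706, log2 -1.90), its neighbour GRB7 (log2 -1.19) and the luminal factor FOXA1 (log2 -2.43). None of the 11 passed 2-fold in BT474/Lap. The summed signal of 5 fibroblast markers was 431 in SkBr3/Lap and 20 to 23 on the other arrays, with COL1A2, DCN and LUM not well above background on any array. COL3A1 (4.10 in SkBr3, 347 in SkBr3/Lap) and PDGFRB (4.17 and 64.8) were well above background in SkBr3/Lap alone. Leukocyte markers summed to 1306 to 2542, with PTPRC and MS4A1 never well above background. The other 4 of 6, CD3E, CD14, CD68 and CD79A, were well above background on every array. CD3E was 2.05-fold higher in SkBr3/Lap, where a second, dimmer probe read log2 -0.12, and no other leukocyte marker passed 2-fold in either clone. Endothelial markers summed to 185 in SkBr3 and 1421 in its clone, against 909 in BT474 and 662 in its clone. Of 3 with a fold change in SkBr3/Lap, CDH5 (58.4 to 915) and PECAM1 (3.43 to 160, a limit) were at least 2-fold higher and none lower. In BT474/Lap, PECAM1 was at least 2.38-fold higher and VWF 2.18-fold lower. The part of any of these cell type markers in the results was not tested. In bulk RNA, fewer cells expressing a gene and less of its RNA per cell cannot be told apart.

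Glycolysis turns glucose into pyruvate, which lactate dehydrogenase reduces to lactate or which enters the mitochondrion through pyruvate dehydrogenase. HIF is a transcription factor whose alpha subunit is hydroxylated and degraded when oxygen is present. When it is stable, it binds short DNA elements with the core ACGTG or GCGTG and raises transcription of many glycolytic genes and of genes for vessel growth, pH control and matrix. HER2 signalling is known to feed into both programmes through the PI3K and mTOR pathways.

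All but 1 of the glycolytic enzymes stayed under 2-fold in both clones. The other differences past 2-fold lay in lactate dehydrogenase B, some transporters, regulatory kinases and hypoxia targets, and, in BT474/Lap, both HIF alpha subunits. In SkBr3/Lap, 5 of the 34 genes measured were at least 2-fold higher than in SkBr3 and 4 were at least 2-fold lower. Over all genes with a fold change in that pair, 13.9% were at least 2-fold higher, 13.4% lower and 27.3% either, and the share of members, 26.5%, lay near the last of these. When arrays were scaled to their median signal, the split in SkBr3/Lap was 6 higher and 3 lower. In BT474/Lap, 3 of 33 were at least 2-fold higher than in BT474 and 5 were lower, or 24.2% in all. The shares over all genes in the BT474 pair were 8.84% higher, 5.29% lower and 14.1% either. The median log2 fold change of the members was 0.17 in SkBr3/Lap against -0.05 over all genes, and -0.35 in BT474/Lap against -0.08 over all genes. In all, 15 genes were past 2-fold in at least 1 clone. Of these, 7 were so in SkBr3/Lap alone and 6 in BT474/Lap alone. P4HA1 was lower in both clones, NDRG1 differed in opposite directions, and of the members with a fold change in both pairs none was at least 2-fold higher in both. Over all genes compared in both pairs, 3.89% were past 2-fold in the same direction, with 2.61% higher and 1.28% lower in both, and 2.72% were past 2-fold in opposite directions. Counting opposite signs with at least 1 clone past 2-fold gave 9 of 33 members, against 1836 of 11463 genes of the array (16%).

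**Figure D1:**
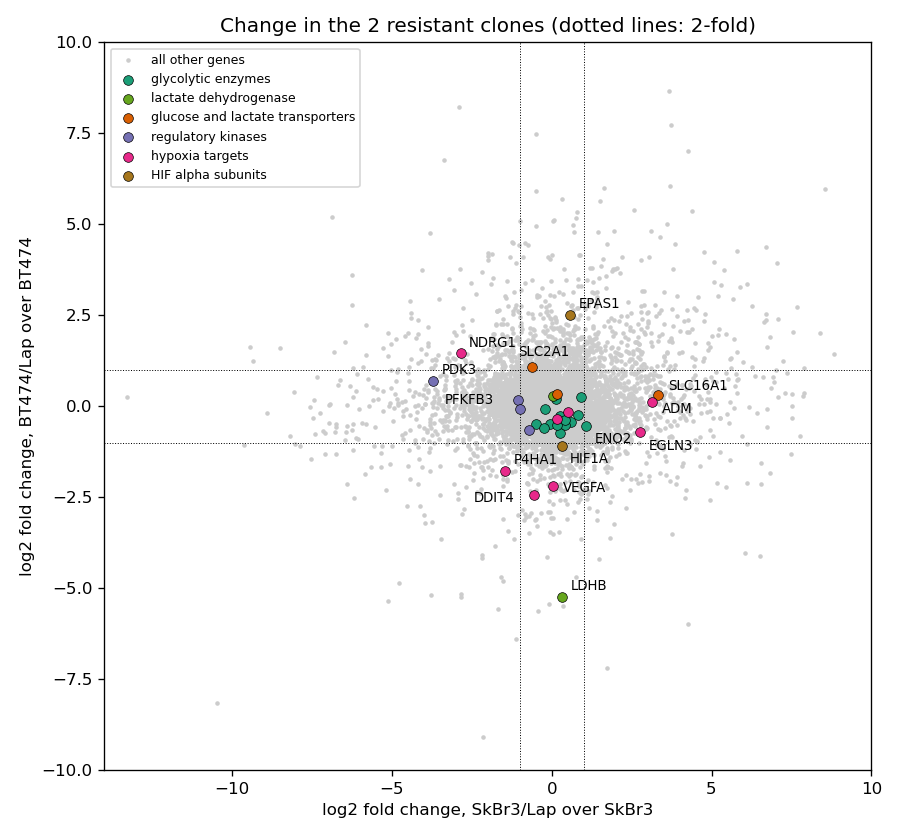
Log2 fold change of each gene in SkBr3/Lap over SkBr3 (x axis) and in BT474/Lap over BT474 (y axis), 1 array per group, with members coloured by their role and all other genes in grey. ENO2 is drawn at its lower limit of 1.08 in SkBr3/Lap, SLC2A3 and CA9 have no BT474 fold change and are not drawn, and most glycolytic enzymes lie between the dotted 2-fold lines while LDHB lies at -5.24 on the y axis alone.

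The promoters of 5 members, picked by their fold changes, are shown: LDHA and LDHB, which parted in BT474/Lap, P4HA1, which was lower in both clones, and ADM and EGLN3, the hypoxia targets that were higher in SkBr3/Lap. SLC2A3, SLC16A1, VEGFA and NDRG1, also past 2-fold, had no promoter entry. Each line is the 250 bases before the start of the first transcript that RefSeq lists for the gene on GRCh38.p14, read 5′ to 3′ on the strand of the gene, and capitals mark the core ACGTG or GCGTG found on either strand, overlapping matches being counted as 1. The positions are chr11:18394313-18394562 (+) for LDHA, chr12:21657843-21658092 (-) for LDHB, chr10:73096867-73097116 (-) for P4HA1, chr11:10304823-10305072 (+) for ADM and chr14:33951075-33951324 (-) for EGLN3.
LDHA: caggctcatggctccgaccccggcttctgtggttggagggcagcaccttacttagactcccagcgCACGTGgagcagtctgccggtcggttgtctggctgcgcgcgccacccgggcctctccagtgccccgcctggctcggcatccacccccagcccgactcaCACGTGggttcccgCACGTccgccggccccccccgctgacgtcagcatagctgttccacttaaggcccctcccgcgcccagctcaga
LDHB: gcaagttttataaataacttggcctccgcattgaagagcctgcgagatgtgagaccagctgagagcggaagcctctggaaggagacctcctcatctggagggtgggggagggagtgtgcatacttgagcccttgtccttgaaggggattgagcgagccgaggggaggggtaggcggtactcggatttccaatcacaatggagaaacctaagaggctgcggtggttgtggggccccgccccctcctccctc
P4HA1: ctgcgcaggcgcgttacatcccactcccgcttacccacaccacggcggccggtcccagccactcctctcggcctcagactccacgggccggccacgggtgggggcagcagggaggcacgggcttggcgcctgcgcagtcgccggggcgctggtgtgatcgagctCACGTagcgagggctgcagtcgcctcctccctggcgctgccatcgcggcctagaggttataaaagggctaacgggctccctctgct
ADM: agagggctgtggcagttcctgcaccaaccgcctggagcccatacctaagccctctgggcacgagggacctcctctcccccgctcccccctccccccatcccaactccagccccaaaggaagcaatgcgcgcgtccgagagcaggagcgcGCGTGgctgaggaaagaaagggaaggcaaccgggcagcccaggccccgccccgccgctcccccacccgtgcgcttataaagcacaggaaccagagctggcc
EGLN3: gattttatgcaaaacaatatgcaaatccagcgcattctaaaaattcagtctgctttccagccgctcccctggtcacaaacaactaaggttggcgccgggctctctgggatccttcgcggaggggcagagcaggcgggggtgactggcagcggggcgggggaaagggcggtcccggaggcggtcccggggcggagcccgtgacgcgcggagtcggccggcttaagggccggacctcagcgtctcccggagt
The LDHA window held 3 cores, those of P4HA1 and ADM 1 each, and those of LDHB and EGLN3 none. Among members past 2-fold that are not shown, DDIT4 held 3, PDK3 2, ENO2, PFKFB3, HIF1A and EPAS1 1 each, and SLC2A1 none. Of 31 members with a promoter entry, 20 (64.5%) held at least 1 core, against 43.1% of 27305 genes. The list holds HIF targets by choice, both cores contain CG, and CG content was not compared with that of other genes. The difference between these shares was not tested. A match is a description of the letters and was not tied to binding, which was not measured.

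Among the 14 glycolytic enzymes, from hexokinase to pyruvate kinase, 13 stayed under 2-fold in SkBr3/Lap and all 14 did in BT474/Lap. In SkBr3/Lap their median log2 fold change was 0.25, and 10 of the 14 were above 0, against 47.4% of all genes. In BT474/Lap their median was -0.46, and 12 of the 14 were below 0, against 56.6% of all genes. Of 12 reference genes outside the pathway, 7 were below 0 in SkBr3/Lap and 9 in BT474/Lap, with medians of -0.35 and -0.26. The medians of the enzymes with both lactate dehydrogenase subunits, 0.25 and -0.46, kept their sign under each other scaling run, with values of 0.22 to 0.41 in SkBr3/Lap and -0.67 to -0.20 in BT474/Lap. GAPDH, the glycolytic dehydrogenase often used as a loading reference, gave signals of 139113, 191446, 70917 and 101494 in SkBr3, SkBr3/Lap, BT474 and BT474/Lap, and log2 fold changes of -0.43 and -0.02. ACTB, the cytoskeletal reference and the lowest of the 12 in BT474/Lap, gave signals of 136656, 178812, 177452 and 142029 and log2 fold changes of -0.51 and -0.86, but its probes disagreed in SkBr3/Lap, where 2 others read 0.49 and 0.53.

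Within the pathway, hexokinase 2, the inducible enzyme that traps glucose in the cell, gave a signal of 12420 in SkBr3 and 27511 in its clone, against 6502 in BT474 and 5669 in its clone, with log2 fold changes of 0.25 and -0.73. The latter was the lowest enzyme value in BT474/Lap, and a second HK2 probe read 0.91 and 0.00. HK1, the constitutive hexokinase, differed by 0.25 and -0.28, and GPI, which makes fructose 6-phosphate, by -0.50 in both clones. The 3 phosphofructokinase subunits, which commit sugar to glycolysis, ranged in SkBr3/Lap from -0.21 (PFKM) to 0.60 (PFKP), while the BT474/Lap values lay between -0.50 (PFKL) and -0.07 (PFKM). The aldolases and triose phosphate isomerase, which split the sugar and interconvert the resulting trioses, lay between -0.24 and 0.42 in SkBr3/Lap and between -0.61 and -0.51 in BT474/Lap. In the lower arm, PGK1, which makes ATP, differed by 0.14 and 0.21 and ENO1, the common enolase, by 0.41 and -0.38. PGAM1, the mutase between them, was 1.89-fold higher in SkBr3/Lap (log2 0.92) and at 0.25 in BT474/Lap. PKM, the last enzyme, read 0.82 and -0.24 on its brightest probe, and its second probe passed 2-fold in SkBr3/Lap at 1.18.

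ENO2, the neuronal enolase, was the 1 glycolytic enzyme past 2-fold. Its signal was 3.33 in SkBr3, where it was not well above background, 62.9 in its clone, 254 in BT474 and 253 in its clone. Set against the detection limit of the SkBr3 array, ENO2 was at least 2.11-fold higher in SkBr3/Lap than in SkBr3, and the log2 fold change in BT474/Lap was -0.54. The SkBr3/Lap value was low, and it went under 2-fold when 16 was added to every signal (log2 0.42).

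Of the lactate dehydrogenase subunits, 1 differed widely in BT474/Lap. LDHB, the subunit that favours the conversion of lactate to pyruvate, gave a signal of 75552 in SkBr3 and 175921 in its clone, against 19909 in BT474 and 764 in its clone. It was 37.8-fold lower in BT474/Lap than in BT474 (log2 -5.24), and 1.25-fold higher in SkBr3/Lap than in SkBr3. LDHA, the subunit that favours lactate production and whose promoter held 3 cores above, gave 75095, 144340, 23853 and 41772 in the same order. Its fold changes were near 1, at 0.05 and 0.27 on the log2 scale, and its other probes read -0.81 and 0.56 in the former and -0.06 and 0.61 in the latter clone. The BT474/Lap array was thus low for LDHB and not for LDHA, and LDHB was measured by 1 probe.

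Of the transporters, 2 of 4 were at least 2-fold higher in SkBr3/Lap and 1 of 3 in BT474/Lap. The shares over all genes were 13.9% in the SkBr3 pair and 8.84% in the BT474 pair. SLC2A3 encodes GLUT3, a high-affinity glucose transporter, and its signal was 61.8 in SkBr3 and 4258 in SkBr3/Lap, or 37.1-fold higher (log2 5.21). On the BT474 arrays it was not well above background (4.38 and 3.92), so no fold change was taken there. A second probe went from 3.19, not well above background, to 803, which is at least 27.0-fold higher. SLC16A1 encodes MCT1, which carries lactate and pyruvate across the plasma membrane, and its signals were 285 in SkBr3 and 5314 in its clone, against 155 in BT474 and 281 in its clone. Its log2 fold change was 3.33 in SkBr3/Lap and 0.32 in BT474/Lap. SLC2A1 encodes GLUT1, the basal glucose transporter, and gave 21193, 25498, 8156 and 24909. It was 2.10-fold higher in BT474/Lap (log2 1.07) and 1.55-fold lower in SkBr3/Lap (log2 -0.63). Because SLC2A3 had no fold change in the BT474 pair, these glucose transporters could be set side by side in SkBr3/Lap alone. SLC16A3, the lactate exporter MCT4, differed by 0.18 and 0.33 between clones and parents.

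All 4 regulatory kinases had log2 fold changes below 0 in SkBr3/Lap, from -3.70 to -0.71 with a median of -1.01, and 2 passed 2-fold. Over all genes in that pair, 52.6% were below 0 and 13.4% were at least 2-fold lower. In BT474/Lap the 4 kinases lay between -0.66 and 0.69. PDK3, 1 of the kinases that switch off pyruvate dehydrogenase and so hold pyruvate back from the mitochondrion, gave 655 in SkBr3 and 93.8 in its clone, against 656 in BT474 and 1535 in its clone. It was 13.0-fold lower in SkBr3/Lap, while BT474/Lap stood 1.61-fold above its parent. PDK1, which has the same role, was 1.63-fold lower in SkBr3/Lap and 1.57-fold lower in BT474/Lap. PFKFB3, which makes the activator fructose 2,6-bisphosphate for phosphofructokinase, gave 3452, 3116, 1398 and 2268 in the order used above, and was 2.06-fold lower in SkBr3/Lap (log2 -1.04) and at 0.16 in BT474/Lap. Its other probes that passed the filter read -0.85 and -0.24 in SkBr3/Lap and -0.59 and -0.21 in BT474/Lap, so the call rested on 1 of its probes. PFKFB4, a related enzyme, lay just inside 2-fold in SkBr3/Lap (1.97-fold lower) and at -0.08 in BT474/Lap.

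Of the 9 hypoxia targets, 8 passed the filter, and in each clone some were past 2-fold higher and others lower, the median log2 fold change being 0.10 (SkBr3/Lap) or -0.52 (BT474/Lap). ADM, the vessel-relaxing peptide adrenomedullin, had signals of 1323 in SkBr3 and 21522 in its clone, against 1558 in BT474 and 2465 in its clone. It was 8.74-fold higher in SkBr3/Lap, its level in BT474/Lap lay within 1.09-fold of the parent, and its 10 spots had an SD of 0.07 to 0.09 on the log2 scale within an array. EGLN3, a prolyl hydroxylase that marks HIF alpha for destruction and is itself a HIF target, gave 289, 3662, 738 and 660. SkBr3/Lap stood 6.81-fold above its parent and BT474/Lap 1.62-fold below.

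VEGFA, the endothelial growth factor, gave 699 in SkBr3 and 1343 in its clone, against 2210 in BT474 and 706 in its clone. It was 4.54-fold lower in BT474/Lap (log2 -2.18) and at 0.05 in SkBr3/Lap, and its 4 probes ran from -2.18 to -1.47 in the former clone and from -0.26 to 0.05 in the latter. DDIT4, an inhibitor of mTORC1 also called REDD1, gave 38269, 48719, 46150 and 12336, which was 5.43-fold lower in BT474/Lap and 1.46-fold lower in SkBr3/Lap. BT474/Lap was therefore the array with the lowest scaled level of VEGFA and DDIT4 alike.

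P4HA1, a subunit of the enzyme that hydroxylates proline in collagen, gave 2145 in SkBr3 and 1454 in its clone, against 424 in BT474 and 181 in its clone, and was 2.74-fold lower in SkBr3/Lap and 3.40-fold lower in BT474/Lap. NDRG1, a stress-induced gene linked to growth arrest and differentiation, gave 107504, 27763, 14552 and 57870. It was 7.20-fold lower in SkBr3/Lap (log2 -2.85) and 2.74-fold higher in BT474/Lap (log2 1.45), and its second probe read -3.47 and 1.31. BNIP3, which promotes mitophagy, differed by 0.52 and -0.17, and ANKRD37, an ankyrin-repeat HIF target, by 0.15 and -0.35. CA9, the carbonic anhydrase often used as a hypoxia marker, did not pass the filter. Its signal was 59.6 in SkBr3 and 6.32 in SkBr3/Lap, at least 8.34-fold lower, and it was not well above background on the SkBr3/Lap array or either BT474 array.

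**Figure D2:**
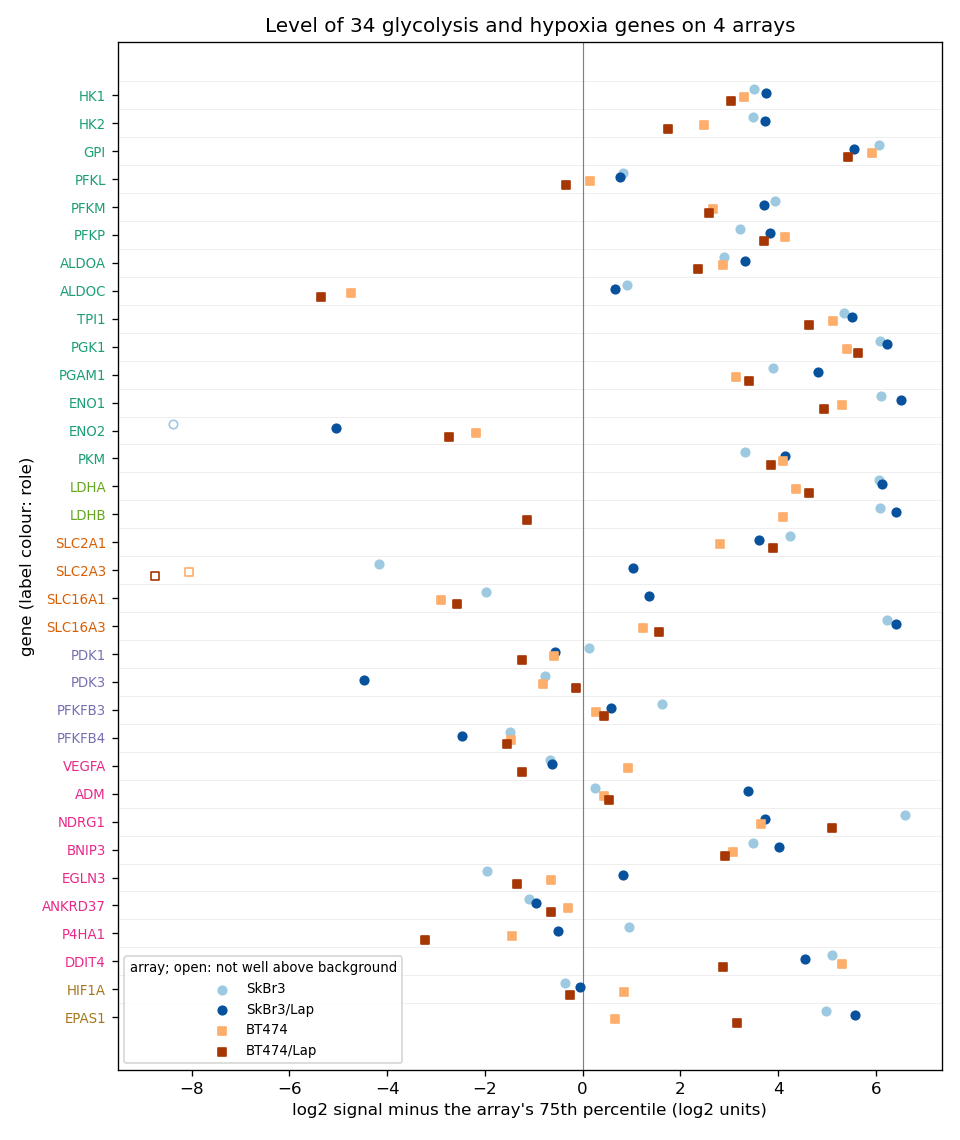
Scaled log2 level (signal minus the 75th percentile of its array) of the 34 members that passed the filter on the 4 arrays, grouped by role, with a hollow point where the signal was not well above background. Levels are compared along a gene's own line and not between genes, and the 37.8-fold lower LDHB of BT474/Lap and the 37.1-fold higher SLC2A3 in SkBr3/Lap stand out.

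The HIF alpha subunits differed past 2-fold in BT474/Lap and in opposite directions. HIF1A, the widely expressed subunit, gave 862 in SkBr3 and 1992 in its clone, against 2073 in BT474 and 1399 in its clone, so that it was 2.15-fold lower in BT474/Lap (log2 -1.10) and at 0.31 in SkBr3/Lap. EPAS1, which encodes HIF-2 alpha, gave 35411, 98416, 1824 and 15092, and was 5.70-fold higher in BT474/Lap, against 1.49-fold in SkBr3/Lap. A second EPAS1 probe was at least 3.94-fold higher in BT474/Lap and 2.03-fold higher in SkBr3/Lap. These are RNA levels, and the protein, which oxygen controls, was not measured.

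Probes for the same gene differed by a median range of 0.31 (log2) in SkBr3/Lap and 0.30 in BT474/Lap over 3961 genes of the array with several probes. The median SD between repeated spots of a probe was 0.07 to 0.08 on the log2 scale. The former is a spread of fold changes between probes and the latter a spread within arrays. Neither stands for the spread between cultures.

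**Figure D3:**
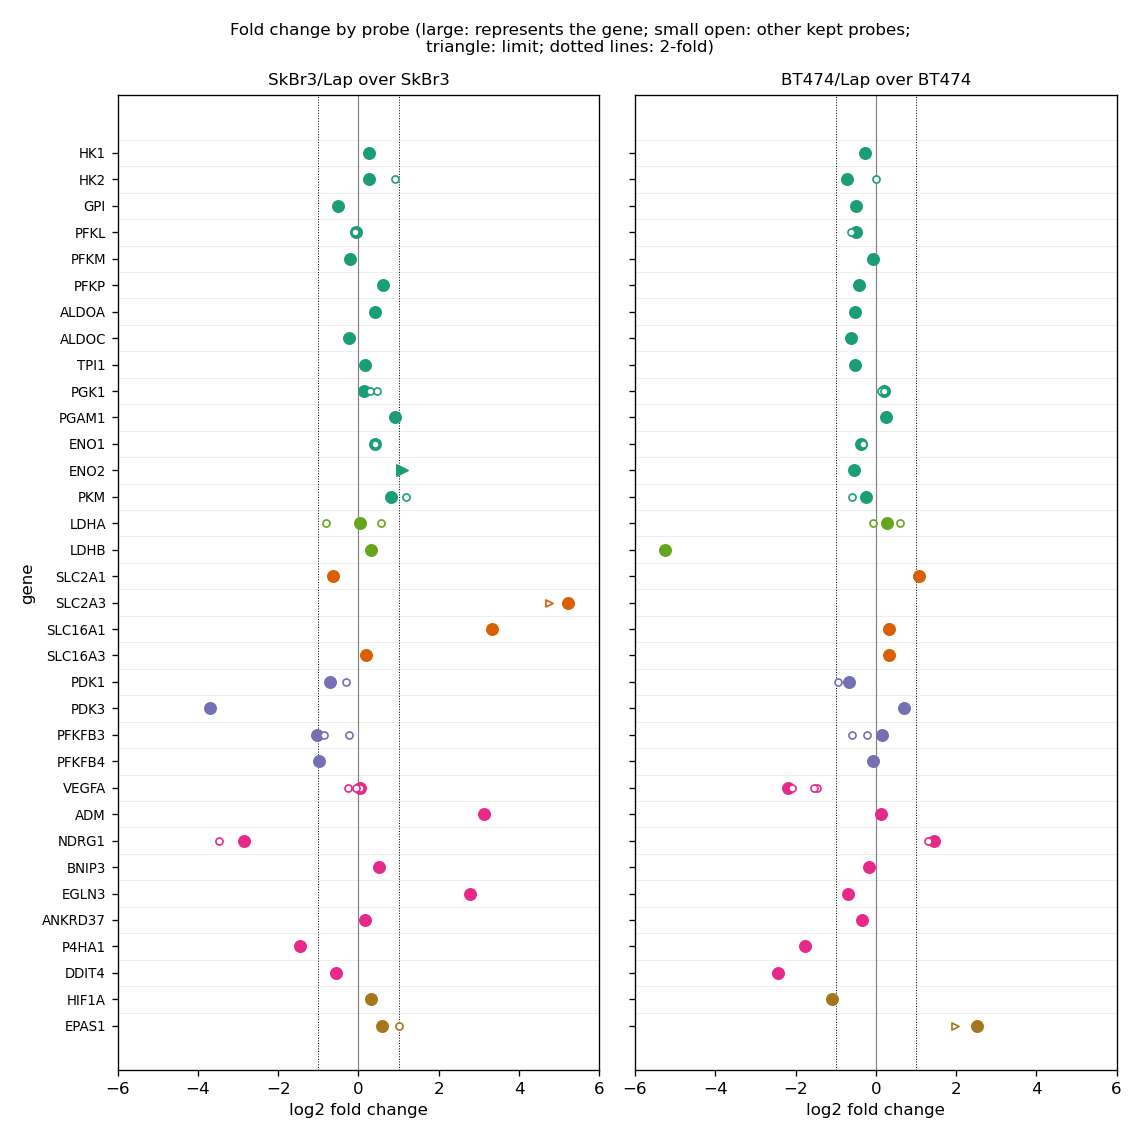
Log2 fold change of each probe of the members that passed the filter, for the SkBr3 pair (left) and the BT474 pair (right), with large symbols for the probe that represents the gene, small open ones for its other probes and triangles for limits. The 4 VEGFA probes lie between -2.18 and -1.47 in BT474/Lap and the NDRG1 probes lie on opposite sides of 0 in the clones, while the PFKFB3 probes run from -1.04 to -0.24 in SkBr3/Lap.

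The parental lines differed in more of these genes than either clone did from its parent, as they did over all genes. In BT474 over SkBr3, 4 of 34 members were at least 2-fold higher, 11 were lower and 19 were under 2-fold, which is 44.1% past 2-fold. Over all genes 19.4% were higher, 19.0% lower and 38.4% either, against 27.3% and 14.1% either in the SkBr3 and BT474 clone pairs. The median over the members was -0.67 against -0.02 over all genes. The widest measured differences, ENO2 having only a limit, were in ALDOC, a brain-type aldolase, 50.3-fold lower in BT474 (43.1 against 2086), SLC16A3, 32.3-fold lower (2715 against 84291), and EPAS1, 20.2-fold lower. LDHA was 3.27-fold and LDHB 3.94-fold lower in BT474, P4HA1 5.26-fold, NDRG1 7.68-fold and SLC2A1 2.70-fold. ENO2 was at least 15.3-fold higher in BT474, VEGFA 3.04-fold, EGLN3 2.46-fold and HIF1A 2.31-fold. ALDOC and SLC16A3, which had the widest measured differences between the lines, stayed under 2-fold in both clones. EPAS1, the next widest, was 5.70-fold higher in BT474/Lap, and NDRG1 and P4HA1 were past 2-fold in both clones. Because a parental array enters both this comparison and that of its clone, the values are set side by side and no relation between them was computed.

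Other genes of the pathway were counted over whole lists, whose counts stand beside the shares of all genes given above. Of 43 other glycolysis genes, 32 passed the filter, and 8 were at least 2-fold higher and 7 lower in SkBr3/Lap, with 4 higher and 2 lower of 31 in BT474/Lap. Their medians were 0.02 and -0.02. Of the measured differences in SkBr3/Lap the widest was in FBP1, the gluconeogenic fructose bisphosphatase, which went from 8083 in SkBr3 to 315 (47.8-fold lower) and stood at 16350 in BT474 and 26755 in BT474/Lap (log2 0.17). SLC2A12, a glucose transporter, was 9.60-fold lower in SkBr3/Lap and at least 2.53-fold higher in BT474/Lap (6.81 to 58.6).

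Of 40 other HIF targets, 31 passed the filter, and 8 of 30 were at least 2-fold higher and 3 lower in SkBr3/Lap, with 7 higher and 2 lower of 29 in BT474/Lap. Their medians were 0.27 and 0.20. CA12, a membrane carbonic anhydrase, gave 18276 in SkBr3 and 48.5 in its clone, against 12153 in BT474 and 54682 in its clone, which was 701-fold lower in SkBr3/Lap, with BT474/Lap 3.10-fold above its parent. IGFBP3, which binds insulin-like growth factors, was higher in both clones, by 2.70-fold (1331 to 6683) and 27.8-fold (606 to 24420). BHLHE41, a clock-linked repressor, was also higher in both, by 3.05-fold (120 to 681) and 16.4-fold (138 to 3289), while its relative BHLHE40 was at 0.87 in SkBr3/Lap and 5.86-fold lower in BT474/Lap (129 to 32.0). LOXL2, which crosslinks collagen, was 2.37-fold and 2.84-fold higher, and HMOX1, which degrades haem, 2.11-fold and 3.43-fold higher. STC2, a secreted glycoprotein, was not well above background in SkBr3 and gave 643 in SkBr3/Lap, at least 21.6-fold higher, a limit that the ranking by size left out and that was picked after its value was seen. SPAG4 was 2.25-fold lower in SkBr3/Lap (108 to 89.6) and 2.14-fold lower in BT474/Lap (61.9 to 41.9).

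Among 19 regulators of the HIF pathway, 18 passed the filter, with 2 at least 2-fold higher and 2 lower in SkBr3/Lap, and 1 higher and 1 lower in BT474/Lap. The shares over all genes were 13.9% higher and 13.4% lower in the SkBr3 pair, and 8.84% and 5.29% in the BT474 pair. The regulators past 2-fold were named after their values were seen. In SkBr3/Lap the higher genes were ARNT2, a dimer partner of the alpha subunits (at least 30.3-fold, 15.9 to 903), and SIAH2, a ubiquitin ligase, and the lower ones were VHL, part of the ligase that marks HIF alpha for degradation, and TSC1, a brake on mTOR. In BT474/Lap, CITED2, which competes with HIF for its coactivators, was higher and ARNT2 was lower.

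A limma model of resistance over both cell lines, with the cell line as a block, leaves 1 residual degree of freedom and treats the lines as replicates. At an adjusted p of 0.05 (Benjamini-Hochberg) it called 0 of 25927 probes (0.00%) and none of the 34 members, whose smallest adjusted p was 1. Without adjustment, 3.47% of probes had a p below 0.05, and P4HA1 was the 1 member that did (log2 -1.61, adjusted p = 1 by limma).

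**Figure D4:**
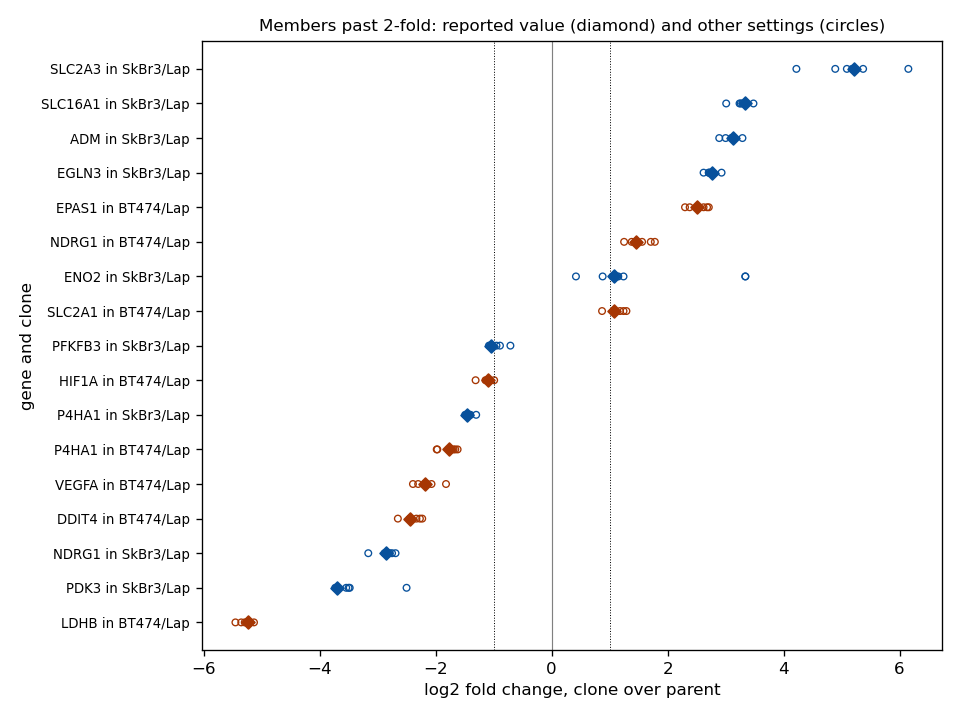
Log2 fold change (x axis) of the 17 member and clone pairs past 2-fold, with a diamond for the reported value, circles for the processing alternatives and dotted lines at 2-fold. The values of ENO2, PFKFB3, SLC2A1 and HIF1A cross the 2-fold line under at least 1 alternative, and the other 13 pairs stay past it.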

How the data were processed

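Total RNA from 4 cell cultures, 1 per group, was hybridised to Agilent 1-colour arrays, labelled with Cy3. The deposited scanner files hold background-corrected spot intensity (the processed signal), extracted by the authors with Feature Extraction 10.1.1.1 per the file headers, whereas the methods of the study name an earlier version. Those methods also describe labelling with Cy3 or Cy5, scanning for both dyes and LOWESS normalization, whereas the file headers name 1 colour. The authors also deposited a table of log2 values of the same arrays, used as an alternative, whose fold changes differed from those computed here by a median of at most 0.0014. Its column medians were 0.125, -0.198, 0.106 and -0.046.

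Spots of a probe were averaged (43376 spots, 41000 probes, 264 spotted repeatedly), log2 signals were taken minus the 75th percentile of each array, and probes with a signal of at least 100 on 1 array were kept (25927). Accessions were named through RefSeq for 23680 probes, and a gene was represented by its brightest kept probe. A change of at least 2-fold was called. A signal not well above background was raised to the lowest signal well above background on its array, and the fold is then a limit. No spot was saturated. The array number limits the precision.

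Members past 2-fold in a clone were described in full. From the companion lists, genes past 2-fold in 1 direction in both clones and the 3 with the largest change in each clone among genes well above background on both arrays of the pair, so that limits were left out, were named, with GAPDH and ACTB. The members and lists were chosen with earlier results of these data known. limma 3.58.1 in R 4.3.3 was run with cell line as a block, tested on simulated data. Alternatives covered scaling, background correction, filters, probe choice and threshold.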

Additional observations from a re-analysis of the deposited data

Results flagged for a closer look

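For 9 members the fold changes of the clones had opposite signs and at least 1 of them was past 2-fold, which was so for 1836 of 11463 genes of the array (16%). The difference between the clones was not tested, since each rests on 1 array, and SkBr3/Lap was on a slide of its own. Values are log2 fold changes over the parent, SkBr3/Lap first. ENO2 was at 1.08 (a lower limit) and -0.54, LDHB at 0.32 and -5.24, and SLC2A1 at -0.63 and 1.07. PDK3 was at -3.70 and 0.69 and PFKFB3 at -1.04 and 0.16, although its other probes were below 0 in both clones. VEGFA was at 0.05 and -2.18, with its other probes between -0.26 and 0.04 in SkBr3/Lap, so that its place here depends on the probe. NDRG1 was at -2.85 and 1.45, EGLN3 at 2.77 and -0.70, and HIF1A at 0.31 and -1.10. Only NDRG1 was past 2-fold in both.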

How the results depend on the processing

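Of 12 processing alternatives, 11 recompute fold changes, and under these 185 fold changes of the 17 member and clone pairs past 2-fold were recomputed. None changed direction, 178 stayed past 2-fold and 7 did not, and 13 pairs stayed past it under each alternative run for them. The exceptions were ENO2 in SkBr3/Lap (0.42 with 16 added to the signal, 0.88 with normexp and quantile normalization), PFKFB3 in SkBr3/Lap (-0.71 with the mean over its probes, -0.89 with median scaling, -0.95 with normexp), SLC2A1 in BT474/Lap (0.87 with median scaling) and HIF1A in BT474/Lap (-0.99 with the percentile over probes well above background). Filters, limits and probe means cannot move a gene with 1 kept probe well above background on all 4 arrays. ADM in SkBr3/Lap, for example, stayed at 3.13 under each of these. The 178 thus includes values that were fixed in advance and is not a count of separate checks. Requiring signal well above background on all 4 arrays left 3 members higher in SkBr3/Lap in place of 5, since ENO2 and SLC2A3 were no longer tested. At 3-fold, SkBr3/Lap had 2 lower in place of 4, BT474/Lap 5 in all in place of 8 and 1 higher in place of 3, the parental comparison 2 higher in place of 4, and both clones 0 in the same direction in place of 1. Median scaling moved the median over all genes from -0.05 to 0.11 for the SkBr3 pair and from -0.08 to -0.29 for the BT474 pair, and the share of higher among called genes from 50.9% to 60.4% and from 62.6% to 45.8%. limma called 0 members at an adjusted p of 0.05 also without a block (0 with an unadjusted p below 0.05). A fit with slide as a block was also run, but SkBr3/Lap was alone on its slide. That fit therefore set only BT474/Lap against the parental arrays of both lines, and it cannot check resistance over both clones. Pairing by replicate number was not possible, because the labels give only number 1 in each group. The limma model with cell line as a block, given with the results, did set each clone against its own parent. Signals near background limit ENO2 in SkBr3, SLC2A3 in BT474 and CA9.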
